A study of Mus musculus with 10 samples.

Results

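Mmp13, Micall2, Slc22a8, B3galt5, Rhob and Clic5 are 6 genes, of 29955 listed in the count table, that stood higher in lines grown out at the first dasatinib step than in every drug-free library of a mouse leukaemia line. They were chosen by that difference, from the levels at dasatinib 1x against the parental and DMSO libraries, so their gain at 1x is given below as a description with no test. That difference does not include the levels at dasatinib 16x, or those of the genes around and related to them. The members and the lists of related genes were, however, chosen with earlier results of these data known. All 6 passed the filter on low counts.

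The cells are a mouse Ph+ acute lymphoblastic leukaemia line with the p185 form of BCR-ABL1, the kinase fusion of the Philadelphia chromosome. All 10 libraries derive from it: 2 of the untreated parental line (A and B), 1 each of lines carried in the solvent DMSO to step 1x and to step 16x, and 3 each (A, B and C) of lines grown out under dasatinib at 1x and at 16x of its IC90. The parental and DMSO libraries together are called drug-free (n = 4). Dasatinib inhibits the ABL kinase and the SRC family kinases. The labels describe outgrowth at 1 dose, then freezing, recovery without drug or plating at the next dose, and do not say whether RNA was taken with the drug present. It is 1 line, with a single DMSO library at each step, and though the labels call the dasatinib libraries biological replicates, nothing says that the parental ones came from separate cultures, so p-values measure the spread between these samples, which may be technical.

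The libraries held 29049760 to 45813092 counts. Levels are CPM, counts scaled to libraries of equal size after TMM adjustment. Of 12 genes typical of B-cell precursors, 11 were above 1 CPM in at least 1 library. The 12 summed to 3695 to 3994 CPM drug-free, 3475 to 3667 at 1x and 3362 to 3454 at 16x. The part of this fall in the results was not tested. Ebf1, a defining transcription factor of the lineage, stayed under 1 CPM in all 10. Markers of the tissues in which these genes are better known were near 0. Col1a1, Col1a2, Dcn and Sp7, genes of stroma and bone, did not exceed 0.0682 CPM in any library, and all 8 epithelial and kidney markers were under 1 CPM, with Epcam and Lrp2 at 0 throughout. No T-cell marker exceeded 0.0633 CPM in any library. The erythroid markers, nearly all Hbb-b1, summed to 4.88 to 35.3 CPM drug-free, 4.21 to 5.01 at 1x and 16.6 to 27.0 at 16x, and their part in the results was not tested. The stromal and bone list summed to 240 to 318 CPM, nearly all of it Alpl, an alkaline phosphatase (240 to 318 CPM).

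The 6 genes have no common pathway. Mmp13 encodes a secreted collagenase made as an inactive precursor, best known from cartilage and bone, and its promoter is a classic target of AP-1 and RUNX factors. Micall2 encodes a scaffold that links RAB GTPases to actin and to the delivery of junction proteins. Slc22a8 is the organic anion transporter OAT3 of the kidney tubule, which carries many drugs and metabolites. B3galt5 adds galactose in a beta-1,3 linkage to growing sugar chains of glycolipids and glycoproteins. Rhob encodes a small GTPase of endosomes and the plasma membrane that acts on actin and receptor traffic and is quickly induced by stress and growth factors. Clic5 belongs to the chloride intracellular channel family and is found with ezrin at the cell cortex.

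Mmp13 was at 1.81 and 1.77 CPM in parental A and B, 0.958 in DMSO 1x and 0.0804 in DMSO 16x, the last from 3 counts (95% counting interval 0.0166 to 0.235 CPM). At dasatinib 1x the libraries A, B and C held 11.8, 12.4 and 9.20 CPM, and at dasatinib 16x they held 8.26, 9.83 and 5.70 CPM. Every dasatinib library lay above every drug-free one, and 16x A and C lay below all of 1x, while 16x B lay between 1x C and 1x A. The fitted log2 change at 1x over drug-free was 3.28 ± 0.60 (SE). How far Mmp13 stood above drug-free depended on the reference, since it was lower in both DMSO lines than in the parental line: the log2 change at 1x was 2.64 against the parental libraries alone and 5.30 against the DMSO libraries alone. It was the largest of the 6 against all drug-free libraries, but Micall2 had a larger one against the parental libraries alone (3.03) and without DMSO 1x (3.23 against 3.20).

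Micall2 lay at 1.60 and 2.13 CPM in parental A and B, 2.60 in DMSO 1x and 1.15 in DMSO 16x. At dasatinib 1x it reached 14.5, 19.95 and 11.7 CPM in A, B and C, and at 16x 12.1, 12.8 and 18.9 CPM. The steps overlapped fully, and both lay far above the drug-free range. The log2 change at 1x was 3.03 ± 0.29, and it was 3.03 against parental and 3.15 against DMSO libraries. Micall2 is a gene of chromosome 5, whose other 734 tested genes had a median log2 change of 0.22 at 1x over drug-free and of -0.33 in DMSO over parental, against -0.01 for all genes in both. The part of this shift in the result was not tested.

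**Figure D1:**
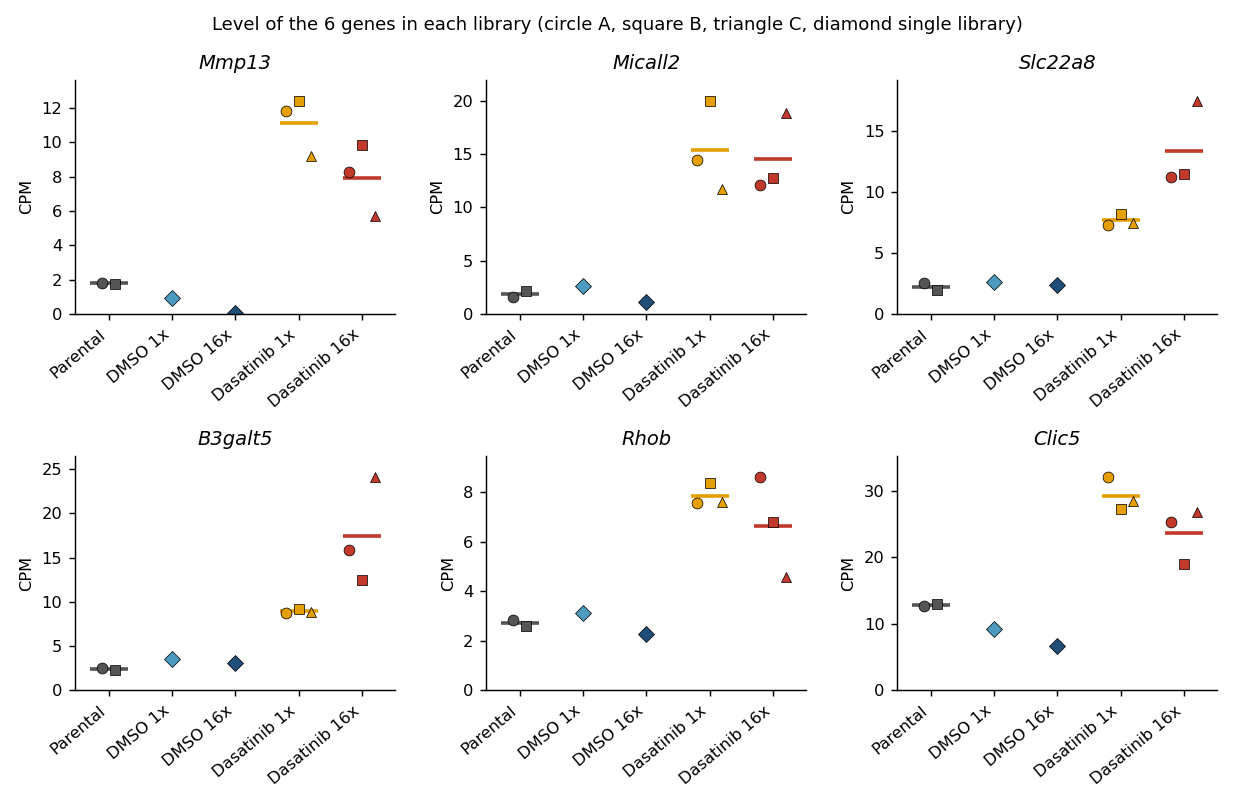
Level of each of the 6 genes in CPM (vertical axes, from 0, scaled per gene) by group (horizontal axes). Points are libraries, with the shape giving the replicate letter, and bars are means where a group has more than 1 library. All dasatinib libraries lie above all drug-free ones in the 6 panels, and only Slc22a8 and B3galt5 have all 3 libraries at 16x above all 3 at 1x.

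Slc22a8 was at 2.52 and 1.96 CPM in parental A and B, 2.65 in DMSO 1x and 2.36 in DMSO 16x. It stood at 7.28, 8.20 and 7.49 CPM in dasatinib 1x A, B and C and at 11.2, 11.5 and 17.4 CPM in 16x A, B and C. The 3 levels, drug-free, 1x and 16x, did not overlap. The log2 change at 1x over drug-free was 1.69 ± 0.17.

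B3galt5 followed the same course. It was at 2.59 and 2.30 CPM in parental A and B, 3.56 in DMSO 1x and 3.06 in DMSO 16x, at 8.76, 9.18 and 8.85 CPM in dasatinib 1x A, B and C, and at 15.9, 12.5 and 24.1 CPM in 16x A, B and C. The steps again did not overlap, and 16x C was the highest library for both transferase and transporter. The log2 change at 1x over drug-free was 1.63 ± 0.22.

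Rhob was at 2.86 and 2.58 CPM in parental A and B, 3.12 in DMSO 1x and 2.28 in DMSO 16x. It reached 7.56, 8.35 and 7.59 CPM in A, B and C of dasatinib 1x and 8.59, 6.79 and 4.56 CPM in 16x A, B and C. At 16x, A was above and B and C were below all of 1x, so the later lines had spread to either side of the earlier level. The log2 change at 1x over drug-free was 1.53 ± 0.20.

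Clic5 was the most abundant of the 6 in CPM. It held 12.6 and 13.0 CPM in parental A and B, 9.25 in DMSO 1x and 6.62 in DMSO 16x. The dasatinib 1x libraries A, B and C were at 32.0, 27.3 and 28.5 CPM and the 16x libraries at 25.2, 19.1 and 26.8 CPM. All 3 libraries at 16x lay below all 3 at 1x and above all drug-free ones. The log2 change at 1x over drug-free was 1.495 ± 0.22, and it was 1.19 against parental and 1.90 against DMSO libraries. Per kilobase of exon, which allows levels to be compared between genes, the mean levels of the 6 genes lay between 0.432 (Mmp13) and 1.18 (Clic5) CPM per kilobase in drug-free libraries, between 1.45 (B3galt5) and 4.17 (Mmp13) at 1x, and between 2.70 (Clic5) and 3.52 (Micall2) at 16x.

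Across all 12282 tested genes, 12.5% had every 1x library above every drug-free one, and 0.822% were called higher and 1.14% lower there at an adjusted p under 0.05. The 6 genes were picked on that contrast, so nothing is read from their standing in it. The 1x libraries resembled each other closely in 3 of the genes. For B3galt5, Slc22a8 and Rhob the coefficient of variation at 1x was 2.46%, 6.31% and 5.71%, where counting alone gives 5.54%, 5.995% and 5.92%. At 16x the same genes varied by 34.0%, 26.4% and 30.4%, against 3.80%, 4.27% and 6.17% from counting. Mmp13, Micall2 and Clic5 varied by 15.3%, 27.2% and 8.33% at 1x, where counting alone gives 4.98%, 4.32% and 3.05%. At 16x they varied by 26.2%, 25.6% and 17.3%. The 1x values also chose the genes, which can favour a small spread at that step. Whether the spread itself differed between the steps was not tested.

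The comparison of dasatinib 16x with the drug-free libraries asked which gains were still there at the later step. All 6 genes were higher at 16x by edgeR's quasi-likelihood test, where 7.79% of all tested genes were called higher and 8.33% lower. The 3 libraries at 16x lay above all 4 drug-free ones for each gene, as they did for 14.3% of all tested genes. The drug-free libraries also served to choose the genes, which favours a rise here, and the comparison shares them with the one at 1x. Slc22a8 rose to 13.4 ± 3.52 (SD, n = 3) from 2.37 ± 0.3005 CPM (n = 4), a log2 change of 2.49 ± 0.17 (edgeR adjusted p = 0.000211). B3galt5 rose to 17.5 ± 5.94 from 2.88 ± 0.552 CPM, a log2 change of 2.60 ± 0.22 (edgeR adjusted p = 0.000267). Both stood further above drug-free at 16x than at 1x, and for the other 4 the change at 16x was the smaller.

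Micall2 rose to 14.6 ± 3.73 from 1.87 ± 0.629 CPM (log2 change 2.96 ± 0.29, edgeR adjusted p = 0.000473). Mmp13 rose to 7.93 ± 2.08 from 1.15 ± 0.816 CPM (log2 change 2.79 ± 0.60, edgeR adjusted p = 0.0152). Rhob rose to 6.65 ± 2.02 from 2.71 ± 0.362 CPM (log2 change 1.29 ± 0.20, edgeR adjusted p = 0.00331) and Clic5 to 23.7 ± 4.09 from 10.4 ± 3.03 CPM (log2 change 1.19 ± 0.22, edgeR adjusted p = 0.00769). Each gene was also called higher against the parental libraries alone, against the DMSO libraries alone, and whichever library was left out. The call of Mmp13 ended in a fit to the drug-free and 16x libraries only (edgeR adjusted p = 0.0607), and its log2 change was 2.15 against parental and 4.81 against DMSO libraries.

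**Figure D2:**
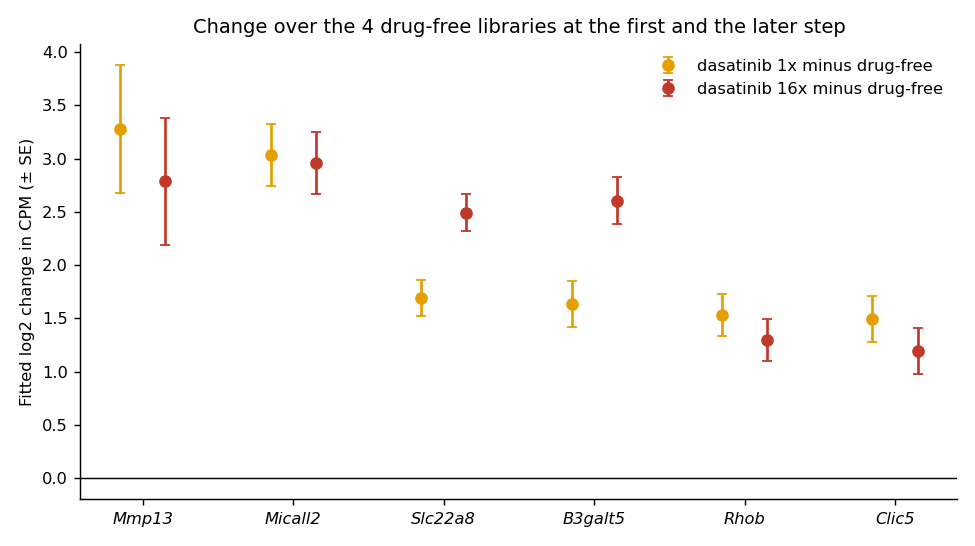
Fitted log2 change in CPM over the 4 drug-free libraries (vertical axis) for each gene (horizontal axis), at dasatinib 1x and at 16x, with bars of 1 SE. The change at 16x is above that at 1x for Slc22a8 (2.49 against 1.69) and B3galt5 (2.60 against 1.63) and below it for the other 4 genes.

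The comparison of dasatinib 16x with 1x asked which genes kept rising, held or fell. In the fit of 3 classes none of the 6 was called, where 2.13% of all tested genes were called (1.21% higher and 0.928% lower) and 1942 had an unadjusted p under 0.05. At that level, with no adjustment, 2 of the 6 passed, Slc22a8 and B3galt5. Slc22a8 had a log2 change of 0.80 ± 0.18 from 1x to 16x (edgeR adjusted p = 0.0546), and B3galt5 of 0.97 ± 0.23 (edgeR adjusted p = 0.0687). For these 2 genes all 3 libraries at 16x were above all 3 at 1x, as for 15.1% of all tested genes. Because the 1x libraries chose the genes for being high, this comparison leans toward a fall.

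The call on this pair differed between fits. In a fit that kept the parental, DMSO 1x and DMSO 16x libraries as separate groups, Slc22a8 and B3galt5 were both called higher at 16x (edgeR adjusted p = 0.0115 and 0.0275), and 2 of the 6 were called. DESeq2 also called both (adjusted p = 0.00264 and 0.0028). Without DMSO 16x both were called (edgeR adjusted p = 0.0181 and 0.0360), and without dasatinib 16x B, B3galt5 was called (edgeR adjusted p = 0.0385). In a fit to the 6 dasatinib libraries alone, Slc22a8 was called (edgeR adjusted p = 0.0246) and B3galt5 was not. Limma-voom called neither.

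Mmp13, Micall2, Rhob and Clic5 were not called in the fit of 3 classes or in that of 5 groups. With the replicate letter as a block, which leaves out the DMSO libraries, Mmp13 was called lower at 16x (log2 change -0.51, edgeR adjusted p = 0.0121). From 1x to 16x the log2 change of Mmp13 was -0.49 with a 95% interval of -1.90 to 0.91, and that of Clic5 -0.30 with an interval of -0.85 to 0.24. For Rhob it was -0.24 (interval -0.73 to 0.26) and for Micall2 -0.08 (interval -0.76 to 0.61). All 4 intervals, from the fit of 3 classes with 7 residual degrees of freedom, span 0. Clic5 was lower in 3 of 3 libraries at 16x, which 15.5% of all tested genes were as well.

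The line was also carried in DMSO for the same steps. From DMSO 1x to DMSO 16x, with 1 library each, the fitted log2 change was -3.52 for Mmp13, -1.17 for Micall2, -0.48 for Clic5, -0.45 for Rhob, -0.22 for B3galt5 and -0.17 for Slc22a8. The step change under dasatinib minus that in DMSO was tested in the fit of 5 groups, in which 6.36% of 12993 tested genes were called and 5.06% were called with a positive difference. The DMSO arm has 1 library a step, so its spread is taken from the other groups, and the test reuses the 1x and DMSO values that chose the genes, in which a low DMSO 16x favours a positive difference. Mmp13 was the member called, with a difference of 3.03 ± 0.76 on the log2 scale (edgeR adjusted p = 0.0441). It rests on the 3 counts of DMSO 16x, and the call ended without dasatinib 1x A (edgeR adjusted p = 0.0621), dasatinib 16x A (0.128), parental A (0.0763) or parental B (0.0784), and in limma-voom (adjusted p = 0.401). The difference was 1.19 ± 0.49 for B3galt5 (edgeR adjusted p = 0.253), 0.97 ± 0.38 for Slc22a8 (0.2), 1.09 ± 0.64 for Micall2 (0.461), 0.22 ± 0.41 for Rhob (0.864) and 0.18 ± 0.26 for Clic5 (0.811). Without dasatinib 16x B, the difference of B3galt5 was called as well (1.37, edgeR adjusted p = 0.0276).

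**Figure D3:**
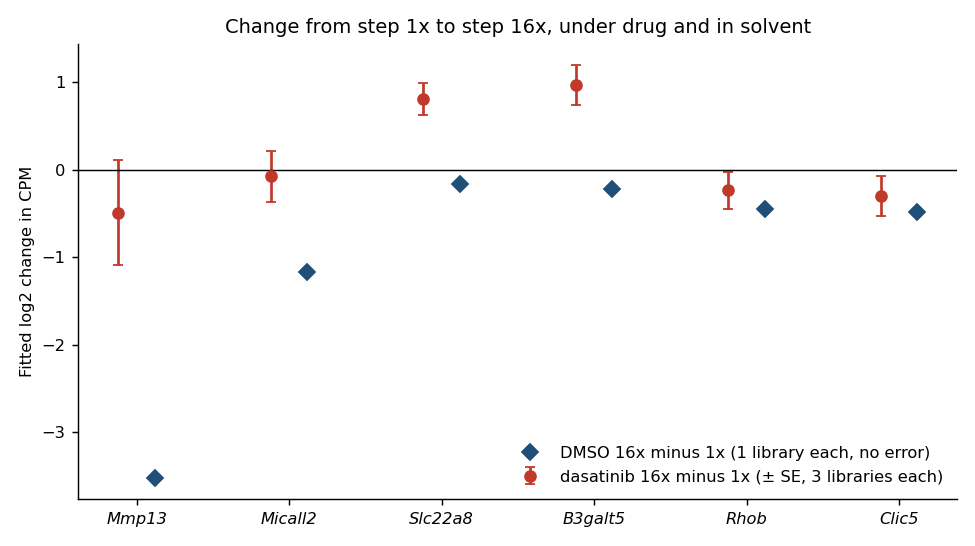
Fitted log2 change in CPM from step 1x to step 16x (vertical axis) for each gene (horizontal axis), under dasatinib with bars of 1 SE (3 libraries a step) and in DMSO with no error (1 library a step). Under dasatinib Slc22a8 (0.80) and B3galt5 (0.97) lie above 0 and the other 4 genes between -0.49 and -0.08, while all 6 lie below 0 in DMSO.

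Slc22a8 and B3galt5 lie on different chromosomes, 19 and 16, and their levels kept a narrow ratio to each other. The ratio of B3galt5 to Slc22a8 in CPM was 1.03 at its lowest (parental A), 1.19 in the median library and 1.42 at its highest (dasatinib 16x A). Likeness was measured as the root-mean-square difference of log2 CPM over the 10 libraries, each gene centred on its own mean, among 8582 named genes that reached 5 CPM in a group. For each of these 2 genes the other was the nearest of all, at 0.145, against a spread of 1.07 for Slc22a8 and 1.11 for B3galt5 around their own means. The next for both was Hmox1, haem oxygenase 1 (0.293 from Slc22a8 and 0.342 from B3galt5), whose mean level was 3.01 CPM drug-free, 7.72 at 1x and 11.8 at 16x. The third was Itgal, an integrin alpha chain of leukocytes, for Slc22a8 (0.407) and Slc11a1, a divalent metal transporter of phagocytes, for B3galt5 (0.396). Slc11a1 had a mean of 0.728 CPM drug-free, 2.52 at 1x and 6.09 at 16x. These likenesses are descriptions over libraries that share their depth and their groups. The drug-free and 1x libraries among them also chose the members, which favours likeness between members.

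The summed level of a list of markers of myeloid cells also rose at each step, in smaller proportion than this pair. The 8 genes of that list summed to 6.89 to 8.36 CPM in drug-free libraries, 9.05 to 9.66 at 1x and 10.3 to 18.7 at 16x, of which 6 were under 1 CPM in every library. Elane was at 0 in all 10 libraries and Mpo, Emr1 and Csf1r did not exceed 0.319 CPM. The sum was carried by Lyz2 (3.09 to 7.80 CPM) and the Fc receptor gene Fcgr3 (1.12 to 10.5 CPM). The part of such cells in the result was not tested, and in bulk RNA more cells of a type and more RNA per cell cannot be told apart.

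**Figure D4:**
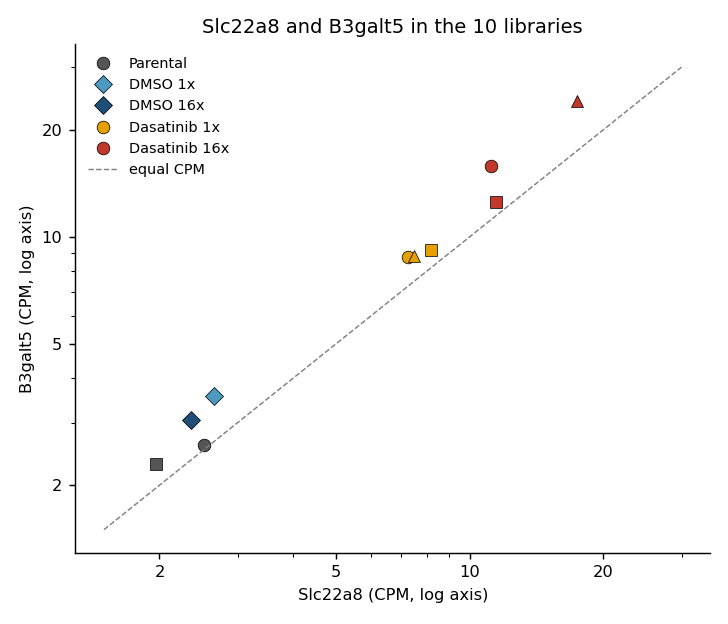
Level of B3galt5 (vertical, CPM, log axis) against Slc22a8 (horizontal, CPM, log axis) in the 10 libraries, with colour for the group, shape for the replicate letter and a dashed line of equal CPM. The libraries fall along 1 band, drug-free at 1.96 to 2.65 CPM of Slc22a8, 1x at 7.28 to 8.20 and 16x at 11.2 to 17.4.

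Mmp13 was nearest to Myo10, an unconventional myosin of filopodia (difference 0.710, against a spread of 2.00 of Mmp13 around its own mean), then to Psd3 (0.873) and Fut4, a fucosyltransferase (0.908). Myo10, Psd3 and Fut4 shared with Mmp13 a low level in DMSO 16x, at 0.134, 0.161 and 0.349 CPM. Micall2 was nearest to Slc22a8 (0.647), B3galt5 (0.680) and Slc11a1 (0.755), against a spread of 1.51 around its own mean. Rhob was nearest to Selm, a selenoprotein gene (0.343), to Clic5 (0.355) and to Atf5, a stress-induced transcription factor (0.357). Clic5 was nearest to Rnase4, a secreted ribonuclease (0.219), Nebl, which encodes the actin-binding protein nebulette (0.223), and Atf5 (0.265). Atf5 had mean levels of 62.2 CPM drug-free, 117 at 1x and 122 at 16x, so that it stood at like levels at both steps.

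Promoters are shown for the closest pair, Slc22a8 and B3galt5, for Mmp13, whose promoter factors are well known, and for Rhob as a contrast of another kind. The RefSeq promoter table, in GRCm38.p6 while the counts were made against mm9, matched all 6 genes by symbol. Each sequence is the 250 bases before a start site on the strand of the gene. Capitals mark exact matches, on either strand, to 8 motifs, which do not overlap each other in these windows. The factor motifs were AP-1, spelt TGACTCA, the cyclic AMP element CRE, spelt TGACGTCA, the RUNX motif, spelt TGTGGT, and the STAT motif, with any letter at N in TTCNNNGAA. The general promoter elements were the GC box, GGGCGG, the box named for its letters CCAAT, the E-box of the form CACGTG and the TATA box of the form TATAAA.
Mmp13, chr9:7272264-7272513, plus strand: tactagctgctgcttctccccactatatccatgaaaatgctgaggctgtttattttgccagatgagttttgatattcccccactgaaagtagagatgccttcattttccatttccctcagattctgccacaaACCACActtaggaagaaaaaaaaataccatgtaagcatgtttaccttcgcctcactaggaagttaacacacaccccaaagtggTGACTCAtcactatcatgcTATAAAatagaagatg
Slc22a8, chr19:8592932-8593181, plus strand: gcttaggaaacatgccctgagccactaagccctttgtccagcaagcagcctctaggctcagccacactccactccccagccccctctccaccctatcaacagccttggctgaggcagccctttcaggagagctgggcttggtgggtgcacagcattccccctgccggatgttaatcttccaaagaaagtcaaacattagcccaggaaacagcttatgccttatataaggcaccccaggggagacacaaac
B3galt5, upstream start, chr16:96235551-96235800, plus strand: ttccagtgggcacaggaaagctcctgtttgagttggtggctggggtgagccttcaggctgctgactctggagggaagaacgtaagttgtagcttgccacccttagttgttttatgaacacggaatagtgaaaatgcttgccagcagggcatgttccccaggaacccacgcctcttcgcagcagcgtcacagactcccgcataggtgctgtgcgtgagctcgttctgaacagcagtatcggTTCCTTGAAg
B3galt5, middle start, chr16:96273263-96273512, plus strand: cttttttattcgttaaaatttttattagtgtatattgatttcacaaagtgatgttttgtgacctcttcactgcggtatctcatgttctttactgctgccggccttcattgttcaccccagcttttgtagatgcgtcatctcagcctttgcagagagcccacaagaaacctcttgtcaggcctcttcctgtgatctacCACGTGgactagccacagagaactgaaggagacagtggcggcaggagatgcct
B3galt5, downstream start, chr16:96280782-96281031, plus strand: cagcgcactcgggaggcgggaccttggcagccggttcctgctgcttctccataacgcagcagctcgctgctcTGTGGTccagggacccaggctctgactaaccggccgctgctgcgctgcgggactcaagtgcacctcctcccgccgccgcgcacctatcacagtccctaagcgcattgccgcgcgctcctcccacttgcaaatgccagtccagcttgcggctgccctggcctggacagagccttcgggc
Rhob, chr12:8500010-8500259, minus strand: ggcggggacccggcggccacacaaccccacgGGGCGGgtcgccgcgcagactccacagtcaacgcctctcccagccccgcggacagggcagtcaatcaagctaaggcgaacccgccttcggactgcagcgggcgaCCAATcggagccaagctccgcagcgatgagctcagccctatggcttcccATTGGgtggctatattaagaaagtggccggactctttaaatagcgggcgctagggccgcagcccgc

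The Mmp13 window held an RUNX match 118 to 113 bases before the start, an AP-1 match 35 to 29 bases before it and a TATA box, motifs found in 14.05%, 4.46% and 12.4% of the 32851 windows of the table. It was the only member with an AP-1 or a TATA match. The Rhob window held a GC box and 2 CCAAT boxes in opposite orientation, 115 to 111 and 66 to 62 bases before the start; 32.7% of windows held a GC box and 33.85% a CCAAT box. The 3 windows of B3galt5 held a STAT match (7.02% of windows), an E-box (6.02%) and a RUNX match. The Slc22a8 window held none of the 8 motifs, and the windows of Micall2 and Clic5, not printed, held 2 GC boxes each. No motif was found in windows of both Slc22a8 and B3galt5, which says only that these letters are not in these windows.

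Neighbouring genes were set beside each member. Of the 36 tested genes that are the 3 nearest on either side of a member, 2 were called at 1x over drug-free, where 1.96% of all tested genes were called. Around Micall2 the 6 neighbours had log2 changes of 0.16 to 0.42 at 1x, none called. Around Rhob they lay between -0.05 and 0.45, none called. Around Slc22a8 they ranged from -2.48 to 0.10 at 1x, the lowest being Pla2g16 (0.413 CPM drug-free), and around Clic5 from -3.88 to 0.20 at 1x and from -2.97 to 1.80 at 16x, with Runx2 the lowest at 1x and the highest at 16x; none was called at 1x. Beside B3galt5, Igsf5, a gene of the immunoglobulin superfamily, went the other way, with a mean of 2.44 CPM drug-free and 0.551 at 1x (log2 change -2.14 ± 0.40, edgeR adjusted p = 0.0345). That call ended without DMSO 1x (edgeR adjusted p = 0.0935), dasatinib 1x A (0.167), B (0.164) or C (0.117), or dasatinib 16x B (0.0512).

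The neighbours of Mmp13 on 1 side are further metalloproteinase genes of the same cluster. Mmp12, macrophage elastase, had 0 to 3 counts in each drug-free library, 4, 15 and 9 in A, B and C of dasatinib 1x, and 18, 20 and 22 in 16x A, B and C. Mmp10, stromelysin 2, had 0 to 5 counts in drug-free libraries, 12, 15 and 17 at 1x, and 25, 26 and 21 at 16x. Both were thus at under 1 CPM everywhere, and higher at 16x than drug-free (Mmp12 log2 change 3.66 ± 0.66, edgeR adjusted p = 0.00685, and Mmp10 3.13 ± 0.52, adjusted p = 0.00469). These calls held whichever library was left out. With so few drug-free counts, both genes passed the filter on low counts only through the dasatinib libraries, where they were high. That favours a rise, and a gene of the cluster as low in every library would not have been tested. On the cluster's other side Dcun1d5, Dync2h1 and Casp1 had log2 changes of -0.01 to 0.10 at 16x, and Tmem123 beyond Mmp10 one of 0.02.

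**Figure D5:**
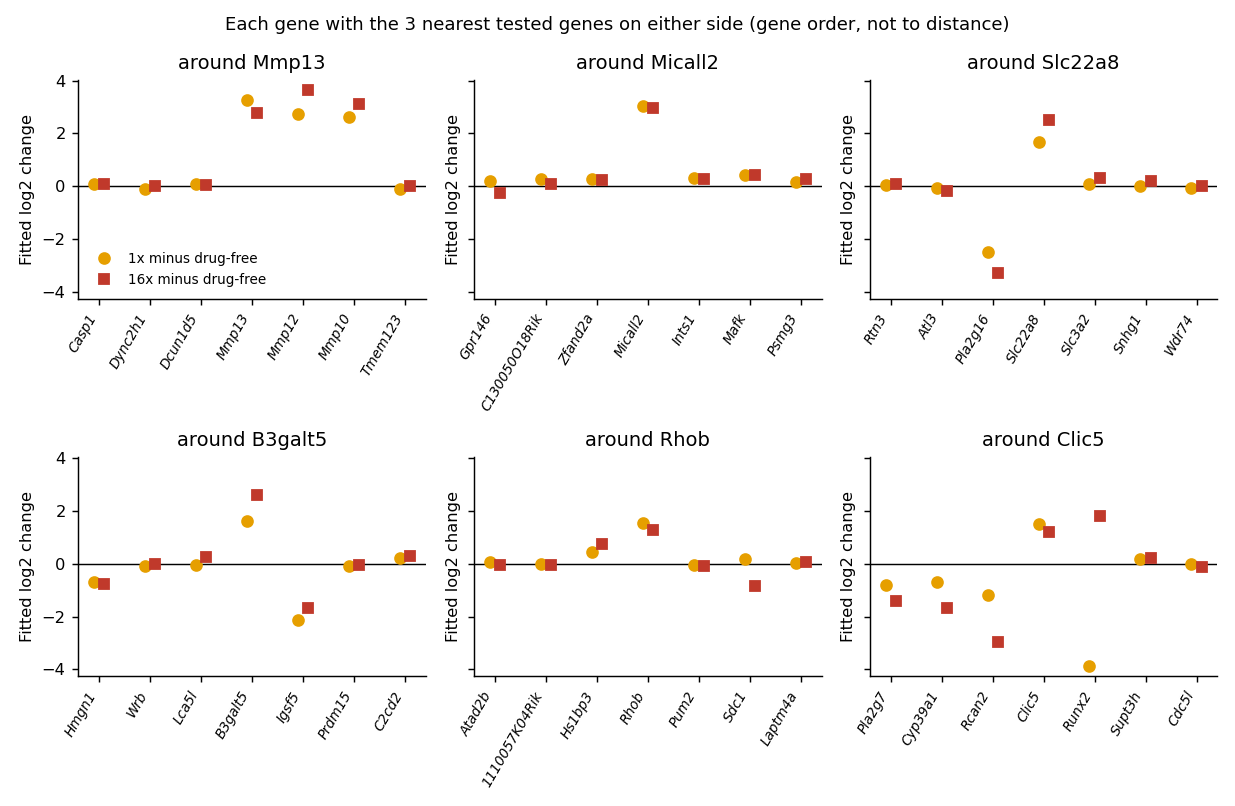
Fitted log2 change over drug-free at dasatinib 1x and 16x (vertical axes, 1 scale) for each of the 6 genes and its 3 nearest tested genes on either side, in gene order (horizontal axes, not to distance). Mmp12 and Mmp10 lie high beside Mmp13 (3.66 and 3.13 at 16x), whereas the neighbours of Micall2 and Rhob stay between -0.85 and 0.74 and those of Clic5 range from -3.88 to 1.80.

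Further matrix metalloproteinases and their inhibitors formed the list around Mmp13, with 7 of its 23 genes tested. At 1x over drug-free 2 were called higher, 0 lower and 5 not called, with a median log2 change of 0.09 against -0.01 for all genes. At 16x 3 were called higher, 1 lower and 3 not called, with a median of 0.75 against 0.00 for all genes. Mmp10 and Mmp12, described above, are among the higher ones and were tested only through the dasatinib libraries. That favours higher calls and a higher median at both steps. The lower one was Mmp17, whose call ended without any one of the 3 dasatinib 16x libraries (edgeR adjusted p = 0.0531 to 0.0882). Mmp14, the membrane-bound collagenase that can activate the Mmp13 precursor, lay at 0.954 and 0.407 CPM in parental A and B, 0.438 in DMSO 1x and 0.214 in DMSO 16x. It lay at 4.78, 3.32 and 3.20 CPM in dasatinib 1x A, B and C and at 5.71, 1.45 and 2.53 CPM in 16x A, B and C. At 16x over drug-free its log2 change was 2.71 ± 0.54 (edgeR adjusted p = 0.0111), a call that held whichever library was left out and ended against the parental libraries alone (edgeR adjusted p = 0.063).

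At 1x over drug-free Mmp14 (log2 change 2.92 ± 0.54, edgeR adjusted p = 0.0345) and Mmp10 (2.63 ± 0.54, adjusted p = 0.0436) were called, but each call ended without some libraries. The adjusted p of Mmp14 was 0.104 without DMSO 1x, 0.144, 0.126 and 0.117 without dasatinib 1x A, B and C, 0.0519 without dasatinib 16x C and 0.0638 without parental B. That of Mmp10 was 0.104 without DMSO 1x, 0.167, 0.164 and 0.173 without dasatinib 1x A, B and C, 0.0645, 0.0696 and 0.0743 without dasatinib 16x A, B and C, and 0.0755 without parental A.

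Of the AP-1 and RUNX factors, known regulators of Mmp13, 12 of 14 were tested and 0 were called at 1x in either direction, with a median log2 change of -0.05. At 16x over drug-free 4 were higher and 1 lower, with a median of 0.19. Of the higher ones, Atf3, Jun and Junb were all lost without dasatinib 16x A (edgeR adjusted p = 0.0533, 0.145 and 0.0693). Jun and Junb were also lost without most other single libraries (edgeR adjusted p up to 0.0738 for Jun and 0.116 for Junb). Runx3 rose to 91.5 ± 2.49 from 71.9 ± 6.72 CPM (log2 change 0.35 ± 0.06, edgeR adjusted p = 0.00787), and Runx1 fell by 0.28 ± 0.04 on the log2 scale, to 127.5 ± 0.184 from 155 ± 6.23 CPM (edgeR adjusted p = 0.00182), both whichever library was left out. Runx2, the bone-forming RUNX factor and also the gene next to Clic5, had 0, 2 and 1 counts in dasatinib 1x A, B and C. It had 68, 46 and 84 in 16x A, B and C, a ratio of 57.2 (95% counting interval 19.3 to 280). DMSO 16x had 42 counts of Runx2 and the other drug-free libraries 2 to 13. The relation of Runx2 to Mmp13 was not tested. Runx2 passed the filter on low counts only with the 16x libraries, where it was high, which favours a rise. From 1x to 16x Runx2 was called higher (edgeR adjusted p = 0.0307), but not without DMSO 1x (0.0588), dasatinib 1x A, B or C (0.147, 0.116 and 0.16) or dasatinib 16x A, B or C (0.0674, 0.0514 and 0.093).

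Of the MICAL family and RAB partners 12 of 13 were tested; at 1x 0 were higher and 1 lower, and at 16x 1 was higher, Rab35 (262 ± 6.94 against 207 ± 21.1 CPM, log2 change 0.34 ± 0.07, edgeR adjusted p = 0.0122), and 2 lower, Actn1 and Mical3. Rab35 was called whichever library was left out. Both lower calls ended without dasatinib 16x B (edgeR adjusted p = 0.0803 and 0.085) and without DMSO 1x (0.0612 and 0.0609). Actn1, an actin crosslinker, was the lower gene at 1x too, where its call ended without DMSO 1x (0.0988), any dasatinib 1x library (up to 0.1995) or any dasatinib 16x library (up to 0.069), and at 16x it also ended without DMSO 16x (0.0536), any dasatinib 1x library (up to 0.0549) and dasatinib 16x A (0.117) or C (0.0976). Of the SLC22 transporters 4 of 18 listed in the table were tested, with 0 higher and 1 lower at both steps. The lower gene was Slc22a15, with 1 count in the 3 libraries at 1x against 455 in the drug-free ones, a ratio of 348 (95% counting interval 62.2 to 13790). Most of the drug-free counts came from the DMSO lines, with 116 in DMSO 1x and 298 in DMSO 16x (7.99 CPM). Parental A and B had 12 and 29 (0.409 and 0.694 CPM), and the counting interval leaves out this spread. Slc22a15 passed the filter on low counts only through the drug-free libraries, which favours a fall. Its call at 1x (edgeR adjusted p = 0.0433) ended without DMSO 1x (0.101), any dasatinib 1x library (0.188 to 0.217) or any dasatinib 16x library (0.0586 to 0.0679). At 16x (adjusted p = 0.0182) it ended without dasatinib 16x A (0.0737), B (0.0592) or C (0.0608).

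Of the beta-1,3 glycosyltransferases 14 of 18 were tested; 0 were higher and 1 lower at 1x, and 2 were higher and 3 lower at 16x. The lower gene at 1x was B3gnt5, whose call ended without DMSO 1x (edgeR adjusted p = 0.0915) or any dasatinib 1x library (0.119 to 0.142). At 16x the calls of B3gnt8, higher, and of B3galtl and B3galt1, lower, all ended without dasatinib 16x B (edgeR adjusted p = 0.097, 0.0635 and 0.128). The latter 2 were lost without any one of 9 libraries, and B3gnt8 without any one of 4. B3gnt2, which builds the poly-lactosamine chains of glycoproteins, fell to 4.05 ± 2.54 at 16x from 28.6 ± 0.697 CPM (log2 change -2.82 ± 0.42, edgeR adjusted p = 0.00331), opposite to B3galt5. B3gnt7 rose by 0.65 ± 0.13 on the log2 scale, to 17.4 ± 3.11 from 11.1 ± 0.927 CPM (edgeR adjusted p = 0.0111). Both calls held whichever library was left out, and that of B3gnt2 ended with the replicate letter as a block (edgeR adjusted p = 0.0646).

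In the CLIC and cortical linker list 8 of 13 were tested, 0 were called at 1x and 2 were higher at 16x. These were Msn, moesin, and Ezr, ezrin, and without parental A neither was called. Msn (log2 change 0.16 ± 0.05, edgeR adjusted p = 0.0467) was lost without any one of 8 libraries (0.0573 to 0.165) and with RLE scaling (0.0524). Ezr was at 745 ± 70.1 against 634 ± 22.0 CPM (log2 change 0.23 ± 0.06, edgeR adjusted p = 0.0227), not called without parental A (0.0517) or parental B (0.0507), in the fit to the 2 classes alone (0.0725) or against DMSO 16x alone (0.0979).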

How the data were processed

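The deposited file holds whole-number counts per gene symbol for the 10 libraries. Per the submitters' processing notes, CASAVA 1.7.0, Trimmomatic 0.33, TopHat2 2.0.12, BWA 0.7.10, SAMtools, HTSeq 0.6.1 and DESeq were used with build mm9; strand setting and annotation are both not given in the sources used here. Close paralogs and antisense reads cannot be told apart. No other GENCODE vM21 gene overlaps a member.

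The 12282 genes passing filterByExpr (minimum count 10) were fitted in R 4.3.3 with edgeR 4.0.16 (TMM, robust quasi-likelihood, Benjamini-Hochberg over all tested genes, 0.05) in 3 classes; the biological coefficient of variation was 15.3%. The step difference used 5 groups (7.29%, 12993 genes). DESeq2 1.42.0 and limma 3.58.1 were alternatives. Log2 CPM used a prior count of 2. Fits were tested on simulated data with 200 changed genes. For 16x against 1x, 16x against drug-free and 1x against drug-free, 90.5%, 93.0% and 94.0% were recovered (12148, 12148 and 12159 genes). For the step difference it was 73.5% (12260). Of genes changed 1.5-fold, 79.1%, 83.6%, 85.1% and 49.25% were recovered, in the same order. False calls numbered 10 to 15. The simulated spread came from a fit of 5 groups, and the 4 drug-free libraries shared 1 mean. The 3 classes had the larger spread given above, so their recovery was measured in a quieter setting than the data.

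Members, lists, motifs and naming rule were chosen with earlier results of these data known. The rule named the members, the 3 genes most like each, and called list genes, up to 4 a list. Gene order came from RefSeq GRCm38.p6 (11322 tested genes placed), exon lengths from GENCODE vM21. No libraries agreed within sampling noise (chi-square per gene 1.91 to 16.7 within groups). Counting intervals cover counting error only, while the intervals on log2 changes come from the fit and include the spread between libraries. The results of some gene lists are not reported here.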

Additional observations from a re-analysis of the deposited data

Results flagged for a closer look

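For Mmp13 the change from step 1x to step 16x under dasatinib minus that in DMSO was 3.03 on the log2 scale, which edgeR's test of the difference called (adjusted p = 0.0441). With 1 DMSO library a step, the spread of that arm is taken from the other groups. The DMSO and 1x values also chose the gene, and a low DMSO 16x favours a positive difference. All 3 dasatinib 16x libraries (5.70 to 9.83 CPM) lay above DMSO 16x (0.0804 CPM, 3 counts), and the parental libraries, which belong to neither step, lay at 1.77 and 1.81 CPM. Its adjusted p ranged over 0.00611 to 0.401 across the alternatives, the highest in limma-voom, and the call also ended without dasatinib 1x A, dasatinib 16x A, parental A or parental B.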

How the results depend on the processing

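Against drug-free at 16x, all 6 genes were called in every alternative except the fit to the 2 classes alone, where Mmp13 was lost (5 called). From 1x to 16x, 0 were called in the main analysis, against 2 with DESeq2, 2 in the fit of 5 groups, 1 in the fit to the 2 classes alone and 0 to 2 with a library left out (2 without DMSO 16x, 1 without dasatinib 16x B). With replicate letters as a replicate block 3 were called, Slc22a8 and B3galt5 higher and Mmp13 lower (log2 change -0.51). The labels do not say whether a letter marks the same line at both steps. Same-letter correlations of deviations were 0.0647, 0.0273 and 0.0517, each the highest for its 1x library. Those between different letters lay between -0.0525 and 0.00857. The sign for Micall2 turned, within -0.31 to 0.15 over left-out libraries, as did that of the step difference for Rhob (-0.0202 without dasatinib 16x A, otherwise up to 0.43). The step difference called 1 gene, but 0 with limma-voom and 0 to 2 with a library left out; without a DMSO library it could not be computed.

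Counts over all genes moved widely. At 1x over drug-free there were 241, but 3580 in the fit of 5 groups, 733 against parental and 4307 against DMSO libraries, 65 without DMSO 1x, 18, 17 and 36 without dasatinib 1x A, B and C, and 516 without DMSO 16x. From 1x to 16x there were 262, but 805 with DESeq2, 1686 in the fit of 5 groups, 1535 with the block, 1222 with the 2 classes alone, 135 without DMSO 1x, 45, 55 and 41 without dasatinib 1x A, B and C, 978 without DMSO 16x, and 155 and 88 without dasatinib 16x A and C. At 16x over drug-free there were 1980, but 4665 in the fit of 5 groups, 995 with the 2 classes alone, 3282, 4673 and 4526 against parental, DMSO and DMSO 16x libraries, 1302 without DMSO 1x, and 1058 and 1005 without dasatinib 16x A and C. The step difference had 826, but 541 without dasatinib 1x C and 543 and 542 without parental A and B. The cause was not tested.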
